A study of Mus musculus with 48 samples.

Results

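ATAC-seq was used to measure what a CRISPR guide against Dusp5 does to chromatin accessibility in tumour-infiltrating CD8 T cells of young mice. In this assay the Tn5 transposase cuts and tags open DNA, so the number of reads in a peak measures how accessible that stretch is. All libraries of young hosts whose titles carry Dusp5 were compared with those that carry OTC, the control guide, which the labels name only by those letters. Together they make up 16 of the 48 libraries of the series. The Dusp5 guide is represented by 2 libraries of Tprog cells, 3 of Ttran and 3 of Tterm, and OTC by the same numbers. The sorted states are Tprog (Slamf6+ Tim-3-, called progenitor exhausted in the labels), Ttran (Slamf6+ Tim-3+) and Tterm (Slamf6- Tim-3+).

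Both guides were carried by the same kind of cell. Donor cells were CD45.1 OT-1 CD8 T cells, whose transgenic receptor recognises an ovalbumin peptide, and they expressed Cas9 under the OTC guide as well as under the Dusp5 guide. A lentivirus delivered a single guide RNA together with ametrine, a fluorescent protein used for sorting. The cells entered young mice 1 day before B16-OVA melanoma, an ovalbumin-expressing tumour line, was inoculated, and ametrine+ cells were sorted from the tumours on day 15. Cells of several mice were pooled into each replicate, with 5000 to 50000 cells per combination of guide and state, so p-values measure the spread between such pools. The labels do not say whether same-numbered libraries of different states came from the same pool. The fit treats them as independent. The letters Y and A in the titles were read as young and aged hosts, and the ages themselves were not given. The labels describe the Dusp5 cells as a knockout of that gene. Neither the guide sequence nor the editing at the gene was measured in the data used here.

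DUSP5 is a dual-specificity phosphatase of the nucleus. It removes the activating phosphates from the ERK kinases and retains them there, and its own gene is switched on by ERK signalling, which makes it a feedback brake of the pathway. In T cells the antigen receptor activates ERK through Ras, Raf and MEK, and ERK in turn phosphorylates ETS-family factors such as ELK1, ELK3 and ELK4, which act with serum response factor at immediate early genes. In tumours, chronically stimulated CD8 T cells pass from a progenitor state marked by TCF1, the product of Tcf7, to terminal exhaustion marked by Tim-3 and sustained by the factor TOX.

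The table holds 53868 peaks with a median width of 899 bp. Reads in peaks ran from 7809388 (Dusp5 Ttran replicate 1) to 29942755 (OTC Ttran replicate 1) among the 16 libraries. Values are normalized reads, that is reads in a peak divided by a size factor of the library. Changes are differences of log2(value + 1), Dusp5 minus OTC, and, unless a state is named, the average over the 3 states with equal weight. Pearson's r between replicates, across peaks, was 0.948 to 0.978; peaks are not independent replicates. Markers of CD8 T cells were open and several of other lineages were not: all 10 CD8 T cell marker genes had peaks, while Ms4a1, Cd79a and Cd79b of the B cell list, Csf1r, Lyz2 and Adgre1 of the myeloid list and Tyr, Dct and Tyrp1 of the melanoma list had none. Other members of those lists had peaks: 2 of 6 B cell, 5 of 8 myeloid, 4 of 7 melanoma, 4 of 4 NK and 5 of 6 stromal genes. In a bulk library, a shift in the share of cells with an open site and a shift in the openness per cell cannot be told apart.

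The gene of a sorting marker followed the sort under both guides. The strongest peak of Havcr2, which encodes Tim-3 (chr11:46452770-46455391, over its start), held 694 and 659 normalized reads in the Dusp5 Tprog libraries, 1253, 1158 and 1349 in Ttran and 1295, 1241 and 1253 in Tterm. Under OTC the values were 656 and 688, 1223, 1279 and 1196 and 1339, 1303 and 1304 in the same order. Tprog lay below the other states under either guide, and the guides overlapped in Tprog and Ttran and lay just apart in Tterm. The log2 fold change of Dusp5 over OTC, averaged over states, was -0.0093 (SE 0.042, adjusted p = 0.949).

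At the targeted gene, the peak over the promoter did not pass the test. The peak over the Dusp5 start (chr19:53528476-53530901) held 847 and 879 against 926 and 835 normalized reads in Tprog, 906, 931 and 914 against 911, 911 and 914 in Ttran and 1076, 945 and 952 against 1086, 1092 and 1046 in Tterm, Dusp5 first. The log2 fold change averaged over the states was -0.046 (SE 0.043, adjusted p = 0.657). Peaks away from the site cut by a guide do not show whether the gene was edited. The promoter, the 250 bases before the start, is shown because ERK is known to induce the gene through serum response factor at its promoter. Capitals mark 2 adjacent CArG boxes, the core that this factor binds, found by a search of both strands, and their first bases lie 82 and 72 bases before the start. Sequence and position are from RefSeq (GRCm38.p6).
Dusp5 promoter, chr19:53528895-53529144, plus strand: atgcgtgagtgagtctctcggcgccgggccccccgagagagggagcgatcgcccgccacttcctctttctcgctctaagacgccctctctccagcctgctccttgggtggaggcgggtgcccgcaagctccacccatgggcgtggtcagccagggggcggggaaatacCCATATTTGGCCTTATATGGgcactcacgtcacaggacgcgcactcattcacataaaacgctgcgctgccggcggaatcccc

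Of the 17 peaks assigned to Dusp5, 3 passed the test averaged over states, as did 3.82% of all peaks. A peak 2218 bp from the gene body (chr19:53544027-53545618) held 349 and 396 against 446 and 368 normalized reads in Tprog, 449, 389.7 and 443 against 564, 528 and 575 in Ttran and 454, 412 and 378 against 561, 548 and 529 in Tterm. It fell by 0.30 on the log2 scale (SE 0.067, limma adjusted p = 0.0026), and this call remained in each of the 28 alternative analyses. A second peak (chr19:53538795-53539713) was at -0.25 log2 units (SE 0.072, adjusted p = 0.0301) and the other called one (chr19:53507249-53508281) at 0.63 (SE 0.18, adjusted p = 0.031). Those calls were lost in 10 and 11 of the alternatives, 8 and 8 of which left out a single library of either guide.

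Across the genome the guide was followed by many modest changes. At a limma adjusted p under 0.05, Tprog gave 421 called peaks, or 0.782% of those tested, divided into 205 higher (0.381%) and 216 lower (0.401%). That division rests on single libraries: 25.4% of the called peaks were higher without Dusp5 Tprog replicate 1, 33.3% without replicate 2, and 66.7% and 58.8% without OTC Tprog replicates 1 and 2, against 48.7% with all. Ttran gave 348 (0.646%), with 158 higher (0.293%) and 190 lower (0.353%), and Tterm 147 (0.273%), with 75 higher (0.139%) and 72 lower (0.134%). The average over states gave 2057, or 3.82%. In the average 968 peaks rose and 1089 fell, 1.8% and 2.02% of all peaks. Falls were thus the more frequent, with 47.1% of called peaks higher, but after quantile normalization rises were, with 54.7% of 1535. The sizes were unequal: the 968 had a median log2 fold change of 0.47 and a median of 147 normalized reads, the 1089 a median of -0.27 and 428 reads. A change of at least 2-fold was seen at 135 of them. The Dusp5 and OTC libraries failed to overlap in each of the 3 states at 382 peaks that were higher and 471 that were lower (0.709% and 0.874%), and 284 and 358 of these were called. A lack of overlap within a single state was common: in Tprog 19.6% of all peaks were higher and 20.1% lower without overlap, in Ttran 7.29% and 8.26%, and in Tterm 9.48% and 9.68%. With DESeq2 on the whole reads 3488 peaks passed in the average, and with all libraries thinned to the smallest total 1295. Without OTC Tprog replicate 2, 97 peaks passed in Tprog and 1312 in the average.

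The direction of the called peaks differed by position. Of the 9073 peaks over an annotated gene start, 65 rose and 228 fell (0.716% and 2.51%). Of 16519 peaks between genes, within 100 kb of the nearest, 385 rose and 246 fell (2.33% and 1.49%). Peaks inside a gene body but off its start divided into 441 and 555 of 25517. The share of a library's reads that lay in start peaks was lower in Dusp5 Tprog, at 37.0% to 37.5%, than in OTC Tprog, at 37.8% to 37.9%. In Ttran the shares were 36.5% to 37.3% against 36.8% to 37.7%, and in Tterm 38.5% to 39.3% against 39.2% to 39.5%. The part of this share in the result was not tested. After quantile normalization, which gives all libraries a common distribution, start peaks gave 63 rises and 65 falls, while the peaks between genes still had more rises, 330 against 177. Position and peak strength moved together, with a median of 451 normalized reads at start peaks, 73.5 inside genes and 65.9 between them. Among peaks with a mean of at least 319 normalized reads, falls outnumbered rises both at starts (205 against 21, or 3.46% and 0.354%) and elsewhere (436 against 180, or 5.79% and 2.39%). Start peaks with means of 33.2 to 94.6 rose at 20 and fell at 3 (3.01% and 0.452%), and those of 94.6 to 319 rose at 21 and fell at 17 (0.952% and 0.771%). Elsewhere the counts were 222 and 101 (1.73% and 0.789%) and 404 and 278 (3.59% and 2.47%). In both of these ranges rises were thus the more frequent at starts and elsewhere. Among weaker peaks, 3 rose and 3 fell at starts (1.10% each), and 97 and 46 elsewhere (0.735% and 0.349%). The part of strength in the result was not tested.

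Genes of the ERK pathway were examined next. The list of ERK brakes holds 17 phosphatases and other negative regulators with 127 peaks, of which 2 rose and 2 fell, or 3.15% called against 3.82% of all peaks. Its median log2 fold change was 0.014, against -0.0043 over all peaks. A peak in Dusp16, which encodes a phosphatase of the stress kinases JNK and p38 (chr6:134804858-134807390), rose by 0.32 log2 units (SE 0.065, adjusted p = 0.000686). Near Spry4, which encodes an inhibitor of Ras signalling, 1 peak (chr18:38584592-38585725) rose by 0.36 log2 units (SE 0.10, adjusted p = 0.0219). The start peak of Dusp2, a nuclear ERK phosphatase (chr2:127332460-127336355), changed by -0.097 log2 units (SE 0.024, adjusted p = 0.00902), and a peak near Dusp1, a phosphatase of several MAP kinases (chr17:26531306-26533060), by -0.15 (SE 0.044, adjusted p = 0.0293). The strongest peaks of Dusp4 and Dusp6, the first a nuclear and the second a cytoplasmic ERK phosphatase, had log2 fold changes of -0.013 (SE 0.033) and -0.051 (SE 0.036) and did not pass it. The Dusp16 call remained in each alternative, the Dusp2 call was lost without Dusp5 Tprog replicate 1, and those at Spry4 and Dusp1 were lost in 8 and 9 of them.

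Among the genes of the cascade itself, 4 of 128 peaks rose and 3 fell, or 5.47% called against 3.82% of all peaks. All 4 rises were at Elk3, the gene of an ETS factor that ERK phosphorylates, which has 21 assigned peaks. The peak with the smallest adjusted p (chr10:93335753-93337512, 24594 bp from the gene body) held 432, 547 and 513 against 313, 265 and 311 normalized reads in Ttran and 427, 484 and 443 against 299.6, 268 and 289.7 in Tterm, Dusp5 first. In Tprog it held 465 and 405 against 421 and 338, so the guides were separate in Ttran and Tterm and overlapped in Tprog. It rose by 0.53 log2 units (SE 0.068, adjusted p = 1.76e-08) averaged over states. A second peak (chr10:93325176-93327129) held 309 and 399 against 208 and 239 in Tprog, 353, 448 and 414 against 351, 302 and 312 in Ttran and 458, 518 and 471 against 418, 409 and 399 in Tterm. There the libraries did not overlap in any state, and the rise was 0.41 log2 units (SE 0.073, adjusted p = 8.85e-05). The other 2 Elk3 peaks rose by 0.35 log2 units (SE 0.09, adjusted p = 0.0118) and 0.30 (SE 0.092, adjusted p = 0.0422). Over the alternatives, 2 to 5 Elk3 peaks were called, all higher.

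Of the peaks of this list that fell, 1 was at Elk4, a close relative of Elk3. That peak, over the gene (chr1:132010290-132012000), held 1246 and 1264 against 1325 and 1585 normalized reads in Tprog, 1208, 1232 and 1312 against 1439, 1338 and 1415 in Ttran and 1090.2, 1038 and 1019 against 1221, 1211 and 1179 in Tterm. The Dusp5 libraries were the lower ones in every state, and the change was -0.19 log2 units (SE 0.039, adjusted p = 0.00104).

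Immediate early genes and other genes regulated by ERK moved in both directions. Of 94 peaks 4 rose and 3 fell, or 7.45% called against 3.82% of all peaks, and their median log2 fold change was 0.00057. The clearest rise was 63974 bp from Bcl2l11, which encodes the pro-apoptotic protein BIM and which ERK signalling is known to restrain (chr2:128226521-128227135). It held 96.6 and 73.4 against 44.4 and 38.5 normalized reads in Tprog, 168, 155 and 187 against 92.7, 139 and 99.2 in Ttran and 123, 165 and 162 against 87.9, 79.4 and 90 in Tterm. Every Dusp5 library lay above every OTC library of its state, and the rise was 0.81 log2 units (SE 0.14, adjusted p = 6.18e-05), a call lost when libraries were thinned. Peaks of the AP-1 genes Fos (chr12:85441709-85442533) and Jun (chr4:95035093-95036877) and of the cyclin gene Ccnd1 (chr7:144943288-144943549) rose with adjusted p of 0.0484, 0.0328 and 0.0488, and these calls were lost in 15, 11 and 19 alternatives. All 3 falls were at Fosl2, which encodes the AP-1 member FRA2. Its start peak (chr5:32134999-32136571) changed by -0.15 log2 units (SE 0.035, adjusted p = 0.0053) and a peak in the gene (chr5:32154832-32155981) by -0.55 (SE 0.14, adjusted p = 0.00788). The third, 562 bp past the gene, changed by -0.91 log2 units (SE 0.28, adjusted p = 0.0448). The start peak lost its call without OTC Tprog replicate 2 and after quantile normalization, and the third in 15 alternatives. Strongest peaks of Egr1 and Egr2, immediate early transcription factors, were not called.

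Progenitor genes divided as well. Of 175 peaks of 15 genes, 8 rose and 9 fell, so 9.71% were called against 3.82% of all peaks, with a median log2 fold change of 0.021. The falls were at Tcf7, Lef1, Satb1 and Ccr7, and the rises at Xcl1, Il7r, Bach2, S1pr1 and Slamf6. Inside Tcf7 a peak (chr11:52273512-52275959) that is open mainly in Tprog held 129, 107 and 81.6 against 136, 219.7 and 192 normalized reads in Ttran and 61.3, 62.7 and 69.3 against 86.6, 104 and 91.1 in Tterm, against 844 and 681 (Dusp5) and 844 and 880.4 (OTC) in Tprog. The Dusp5 libraries were the lower ones in Ttran and Tterm without overlap, and the guides overlapped in Tprog. Its log2 fold change was -0.50 (SE 0.1, adjusted p = 0.000563), called in every alternative. A second Tcf7 peak (chr11:52260738-52262193) fell by 0.32 on the log2 scale (SE 0.07, limma adjusted p = 0.00237), and its call was lost without Dusp5 Tprog replicate 2. The strongest Tcf7 peak (chr11:52299318-52300198) was not called, at -0.05 log2 units (SE 0.044, adjusted p = 0.635).

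Lef1, the partner factor of TCF1, had a peak in the gene (chr3:131153850-131154465) that held 119 and 129.9 against 219.9 and 167 normalized reads in Tprog, 87.1, 113 and 92.7 against 119.7, 132 and 134 in Ttran and 69.7, 74.8 and 64.5 against 128, 90.4 and 96.2 in Tterm. Every Dusp5 library was below the OTC libraries of its state, and the change was -0.53 log2 units (SE 0.13, adjusted p = 0.00487), a call lost with 1 value per group and state. Ccr7 encodes the chemokine receptor that guides T cells to lymph nodes. A peak 11200 bp from it (chr11:99166277-99166875) held 336 and 358 against 409 and 451 in Tprog, 127, 172 and 157 against 175, 157 and 145 in Ttran and 64.7, 53.9 and 33.3 against 145, 113 and 125 in Tterm. The groups overlapped in Ttran and lay apart in Tprog and Tterm. In Tterm alone the change was -1.36 log2 units (SE 0.16, adjusted p = 6.69e-09), in Ttran -0.07 (SE 0.16, adjusted p = 0.936), and the difference between these effects was 1.29 (SE 0.23, adjusted p = 0.0142). A neighbouring Ccr7 peak (chr11:99170736-99171681) was lower in each state without overlap, with a change of -0.53 log2 units (SE 0.12, adjusted p = 0.00342). With 1 value per group and state, the average calls at both Ccr7 peaks were lost.

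Il7r encodes the IL-7 receptor chain of long-lived T cells. A peak in the gene (chr15:9523056-9524129) held 278 and 344 against 195 and 170.3 normalized reads in Tprog, 226, 244 and 245 against 192, 217 and 157 in Ttran and 229, 211 and 213 against 190.2, 160.4 and 142 in Tterm. Every Dusp5 library exceeded the OTC libraries of its state, and the rise was 0.51 log2 units (SE 0.092, adjusted p = 9.88e-05), called in every alternative. Of the 18 peaks of Xcl1, which encodes a chemokine made by progenitor cells, 4 rose and none fell. They lie 17135 to 63462 bp from the gene, with log2 fold changes of 0.21 to 0.63 and adjusted p from 0.00621 to 0.042. A single value per group and state in place of the libraries ended all 4 calls, and Dusp5 Tprog replicate 1 or an OTC Tprog library was needed for 3 of them. Bach2, a repressor that maintains progenitor cells, rose at 1 peak (chr4:32423796-32426871) by 0.18 log2 units (SE 0.045, adjusted p = 0.00628), lost without OTC Tprog replicate 1. The calls at Satb1, S1pr1 and Slamf6 and the weaker ones at Lef1 and Ccr7 had adjusted p of 0.0219 to 0.0479 and were each lost in at least 8 alternatives.

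The terminal exhaustion genes showed 8 rises and 1 fall among 156 peaks of 16 genes, or 5.77% called against 3.82% of all peaks, with a median log2 fold change of 0.026. All 8 rises were at Tox, and the fall was at Nr4a3, which encodes a nuclear receptor induced by the T cell receptor (chr4:48086605-48088193). The Nr4a3 change was -0.41 log2 units (SE 0.12, adjusted p = 0.027), lost in 7 alternatives. No other gene of the list had a peak called in the average, and in Tprog alone Prdm1, which encodes the repressor BLIMP1, had 1. Tox has 27 assigned peaks, and the 8 that rose lie inside the gene with log2 fold changes of 0.34 to 0.61. The one with the smallest adjusted p (chr4:6856680-6858981) held 285 and 251 against 201 and 216 normalized reads in Tprog, 298, 248 and 254 against 152, 179 and 217 in Ttran and 282, 309 and 365 against 236, 194 and 236 in Tterm. Every Dusp5 library was higher than the OTC libraries of its state, by 0.48 log2 units (SE 0.092, adjusted p = 0.000319). The strongest Tox peak (chr4:6988930-6991618) was not called, at 0.086 log2 units (SE 0.057, adjusted p = 0.48).

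Within single states 1 Tox peak was called in Tprog, 4 in Ttran and none in Tterm. Over the alternatives 4 to 9 Tox peaks were called, all higher. Calls at 3 of the 8 (chr4:6833655-6834908, chr4:6856680-6858981 and chr4:6882642-6883565) remained in each alternative. Without Dusp5 Tprog replicate 1 the calls at chr4:6843403-6844849, chr4:6867723-6869731 and chr4:6934488-6935792 were lost. The remaining calls, at chr4:6838022-6839027 and chr4:6880820-6881761, were lost in 12 and 11 alternatives. The plot of peaks along 4 genes shows most of the higher Tox peaks close together in the middle of the order along the chromosome.

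**Figure D1:**
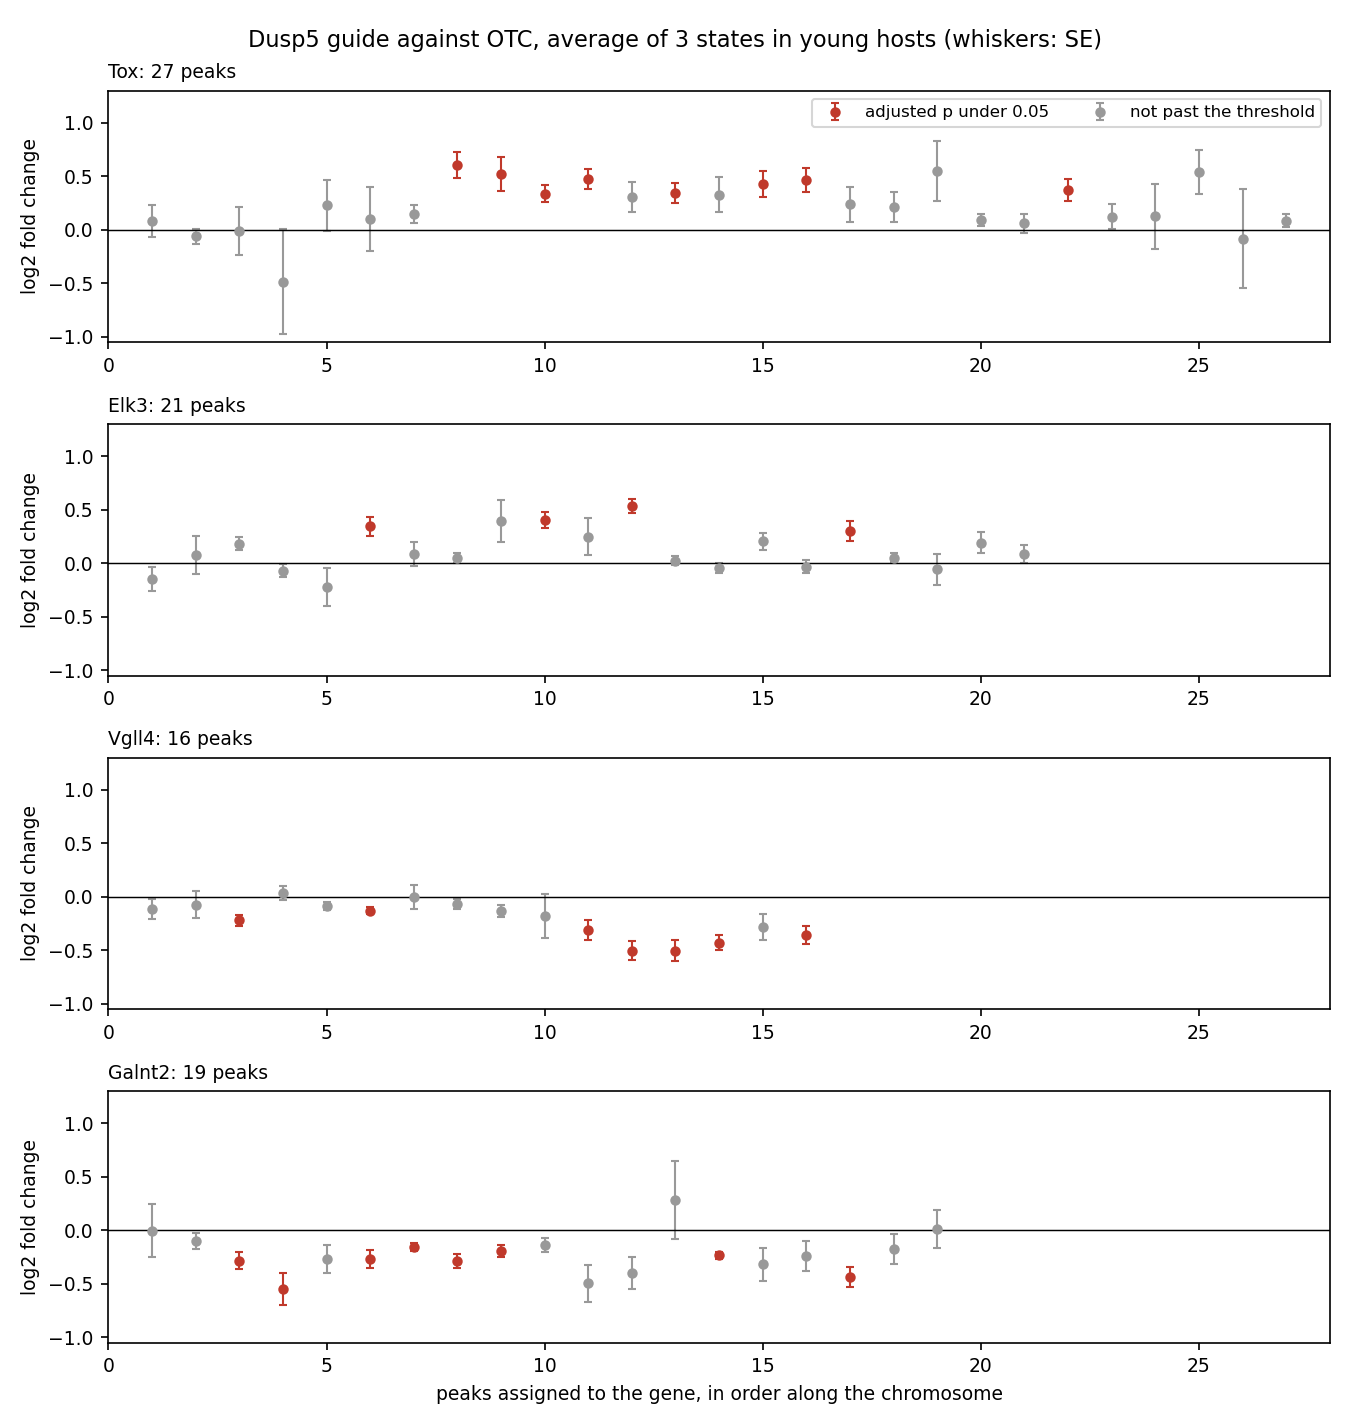
Log2 fold change of Dusp5 over OTC (y axis), averaged over 3 states of young hosts, for every peak assigned to Tox, Elk3, Vgll4 and Galnt2 in order along the chromosome (x axis). Points are estimates, whiskers the SE, and red marks an adjusted p under 0.05: 8 of 27 Tox and 4 of 21 Elk3 peaks were higher, and 7 of 16 Vgll4 and 8 of 19 Galnt2 peaks lower.

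Effector genes gave counts near the background. Of 156 peaks 2 rose and 3 fell, or 3.21% called against 3.82% of all peaks. A peak near Ifng, the gene of interferon gamma (chr10:118404318-118404933), rose by 0.56 log2 units (SE 0.14, adjusted p = 0.00771), lost without OTC Tprog replicate 2. One near Fasl, which encodes a death ligand (chr1:161686715-161688100), rose by 0.34 log2 units (SE 0.097, adjusted p = 0.025). The falls were at Gzmk, a granzyme gene, at -0.28 log2 units, and at the chemokine genes Ccl3 and Ccl5, at -0.12 and -0.23. These and the Fasl call were lost in 9 to 14 of the alternatives.

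Among BATF, IRF and partner factors, 5 of 115 peaks rose and 2 fell, or 6.09% called against 3.82% of all peaks. Of the rises 3 belong to Irf8, the gene of an interferon regulatory factor. The peak 39553 bp from it (chr8:120796247-120798925) held 648 and 714 against 517 and 545 normalized reads in Tprog, 709, 879.6 and 730.2 against 642, 603 and 567 in Ttran and 809, 838 and 869 against 769, 808 and 798 in Tterm. No library of one guide entered the range of the other within a state, and the rise was 0.26 log2 units (SE 0.051, adjusted p = 0.00034), called in every alternative. In Nfatc2, which encodes a calcium-dependent factor downstream of the receptor (chr2:168500417-168501383), a peak rose by 0.62 log2 units (SE 0.15, adjusted p = 0.0055), lost without Dusp5 Tprog replicate 2. The other rise was near Nfatc1, at 0.25 log2 units (SE 0.075). Both falls were at Bcl6, the gene of a transcriptional repressor, at -0.17 log2 units and, over its start, -0.25. The calls at Nfatc1 and Bcl6 were lost in 13 to 15 alternatives, and after quantile normalization this list gave 5 rises and no fall.

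Markers of T cells and of other lineages were compared in the same way. The CD8 T cell list had 2 rises (Thy1) and 3 falls (1 of them at Lck) among 93 peaks, or 5.38% called against 3.82% of all peaks. The summed value of the 45 peaks over these 10 genes was 17541 to 18016 in Dusp5 Tterm and 19827 to 20248 in OTC Tterm. In Ttran it was 18912 to 19636 against 19772 to 20111, and in Tprog 19437 to 20549 against 20362 to 20605. The sums were thus lower with Dusp5 in Ttran and Tterm, without overlap, and overlapped in Tprog. The Thy1 call at chr9:44046603-44047436 and the Lck call at chr4:129557771-129559186 were lost in 14 and 18 alternatives.

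The lists of other lineages had at most 1 called peak each in the average, where 3.82% of all peaks were called. The B cell list had 1 rise in 9 peaks (11.1%), in Pax5 (chr4:44703785-44705032), and the NK list 1 in 14 (7.14%), near Klrb1c (chr6:128753544-128754091). The CD4 and regulatory T cell list had 1 in 33 (3.03%). The change was 0.70 log2 units (SE 0.17, adjusted p = 0.00743) at Pax5, a call lost without Dusp5 Tprog replicate 1, and 0.78 (SE 0.22, adjusted p = 0.0235) at Klrb1c, lost in 8 alternatives. The third was 31531 bp from Ikzf2, which encodes Helios (chr1:69498414-69499676), at 0.57 log2 units (SE 0.10, adjusted p = 6.24e-05), called in every alternative. None of 15 myeloid, 9 melanoma or 18 stromal peaks was called in the average. The summed B cell peaks over the genes were higher with Dusp5 in Tterm (416 to 489 against 351 to 389) and Tprog (648 to 755 against 586 to 645), without overlap. In Tprog the stromal sums were also higher (2990 to 3240 against 2847 to 2923), those of the CD4 and regulatory T cell list were higher (4809 to 4866 against 4750 to 4761), and the melanoma (3073 to 3342 against 3502 to 3530) and myeloid sums (1734 to 1875 against 1931 to 1937) were lower. In Tterm the CD4 and regulatory T cell sums were lower (4357 to 4558 against 4615 to 4659). The sums of these lists and of the NK list overlapped in every other state. Their part in the results was not tested.

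**Figure D2:**
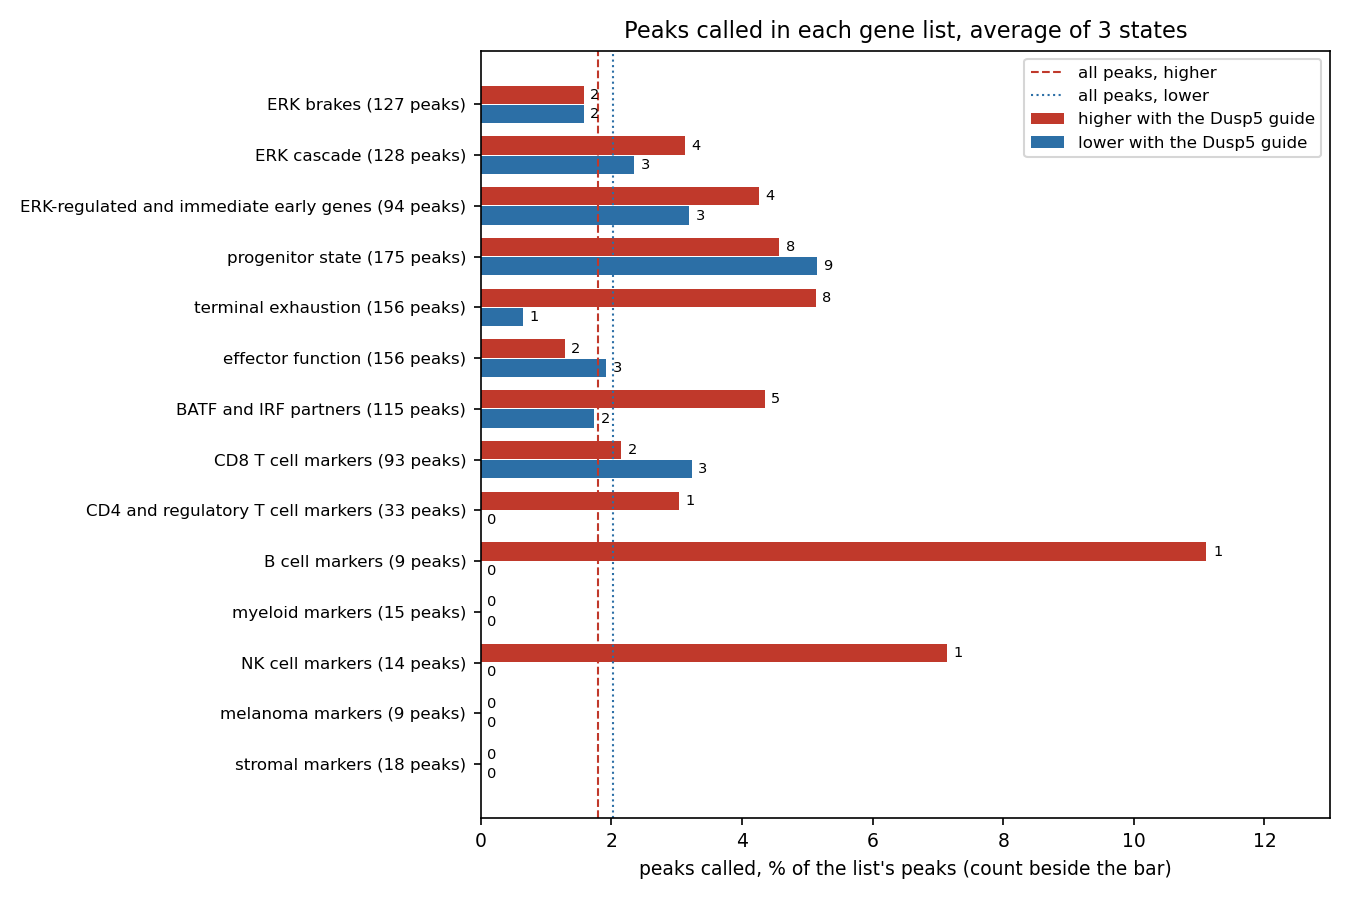
Share of the peaks of each gene list called higher (red) or lower (blue) with the Dusp5 guide in the average over states (x axis, %, with the count beside each bar). Dashed and dotted lines give the share over all peaks, 1.8% higher and 2.02% lower; terminal exhaustion has 8 peaks higher and 1 lower of 156, and the progenitor list 8 and 9 of 175.

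The strongest single results lay outside the lists. At the T cell receptor alpha and delta locus a peak (chr14:54146199-54148291) begins 91 bp past the end of Trdc, the constant segment of the delta chain. Its nearest protein-coding gene is Dad1, 87194 bp away. It held 386 and 458 against 663 and 779 normalized reads in Tprog, 479, 568 and 516 against 963, 912 and 885 in Ttran and 598, 597 and 581 against 1011, 1045 and 975 in Tterm. The Dusp5 libraries were far below those of OTC in each state. The log2 fold change of -0.79 (SE 0.051, adjusted p = 1.11e-22) corresponds to 0.579 times the OTC level and had the smallest p of all 53868 peaks. Between the variable segments Trdv3 and Trdv4 of the same locus lay a pair of peaks with no protein-coding gene within 100 kb, named here after their values were seen. The peak at chr14:54059929-54062365 ranked second by p, and held 226 and 216 normalized reads with Dusp5 in Tprog against 382 and 342 with OTC. In Ttran it held 233, 149 and 119 against 456, 464 and 416, and in Tterm 155, 166 and 191 against 456, 337 and 430.3. It fell by 1.14 log2 units (SE 0.09, limma adjusted p = 9.70e-19), and the peak next to it at chr14:54063417-54064406 fell by 1.32 (SE 0.16, adjusted p = 1.74e-09). Both kept their calls in each of the 28 alternatives.

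The neighbourhood, a stretch chosen after the results were seen, was then taken as a set that includes the leading peak. Of 30 peaks between chr14:54123138-54224198, 7 fell and none rose in the average, where 2.02% of all peaks fell. Their median log2 fold change was -0.15. Their summed value was 11768 ± 310.1 (SD, n = 2) in Dusp5 Tprog and 12859 ± 539 (SD, n = 2) in OTC Tprog. In Ttran it was 12221 ± 241 against 13367 ± 249, and in Tterm 11398 ± 122 against 13175 ± 54.0 (SD, n = 3 each). The sums did not overlap in any state, but they contain the leading peak, and sums without it were not taken. The Zfp219 guide, against the same young OTC libraries, had 5 of the 30 peaks lower and 0 higher, with a median of -0.11. Mean Zfp219 sums were 12244, 12744 and 11764 for Tprog, Ttran and Tterm, below the OTC sums without overlap in each. Dusp5 libraries of aged hosts, against aged OTC, had 4 of the 30 lower and 0 higher, with a median of -0.11. The part of the young OTC libraries in the fall was not tested. OT-1 cells carry their receptor as a transgene, and rearrangement of the native locus in these donors was not measured.

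The rises were ranked by p among peaks with a gene, a mean of at least 20 normalized reads and no overlap in any state. The smallest adjusted p belonged to peaks in or near 2900026A02Rik, Prelid3b and Il12a, and their lack of overlap was thus a condition of the choice. The peak 29434 bp from Prelid3b, of a family of mitochondrial lipid carriers (chr2:174502434-174503604), held 175 and 168 against 70.2 and 84.7 normalized reads in Tprog, 308, 284 and 319 against 100.2, 126 and 122 in Ttran and 316, 313 and 286 against 135, 102 and 141 in Tterm. The rise was 1.27 log2 units (SE 0.11, adjusted p = 1.17e-15), or 2.41-fold. In 2900026A02Rik, a gene known by its clone name (chr5:113113867-113115140), the values were 165 and 236 against 44.4 and 53 in Tprog, 238, 179 and 194 against 122, 79 and 109.8 in Ttran and 155, 156 and 188 against 87.9, 82.6 and 97.9 in Tterm. That rise was 1.29 log2 units (SE 0.11, adjusted p = 2.75e-16). Near Il12a, which encodes a subunit of interleukin 12 (chr3:68779518-68780696), the values were 207 and 228 against 125 and 99.2 in Tprog, 238, 271 and 206 against 111, 156 and 131 in Ttran and 236, 185 and 218 against 111, 128 and 119 in Tterm. There the rise was 0.87 log2 units (SE 0.10, adjusted p = 1.26e-09). Each of these 3 calls remained in every alternative.

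Weaker peaks moved further. Among peaks with an assigned gene, a mean of at least 20 normalized reads and no overlap between guides in any state, the largest rises were at Snap25, the gene of a membrane fusion protein (chr2:136711857-136712537), at 1.80 log2 units (SE 0.29, adjusted p = 9.3e-06), and at the muscle gene Ttn (chr2:76814151-76814816), at 1.66 (SE 0.31). The largest fall of all peaks was in Ly86, which encodes a binding partner of the receptor RP105 (chr13:37345413-37346166). It held 9.28 and 2.41 against 15.8 and 14.5 normalized reads in Tprog, 0, 0 and 1.96 against 39.7, 46.1 and 60.2 in Ttran and 0.562, 4.04 and 4.16 against 46.8, 43.2 and 56.8 in Tterm. With so few reads in the Dusp5 libraries, the fitted -3.46 log2 units depends on the pseudocount.

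**Figure D3:**
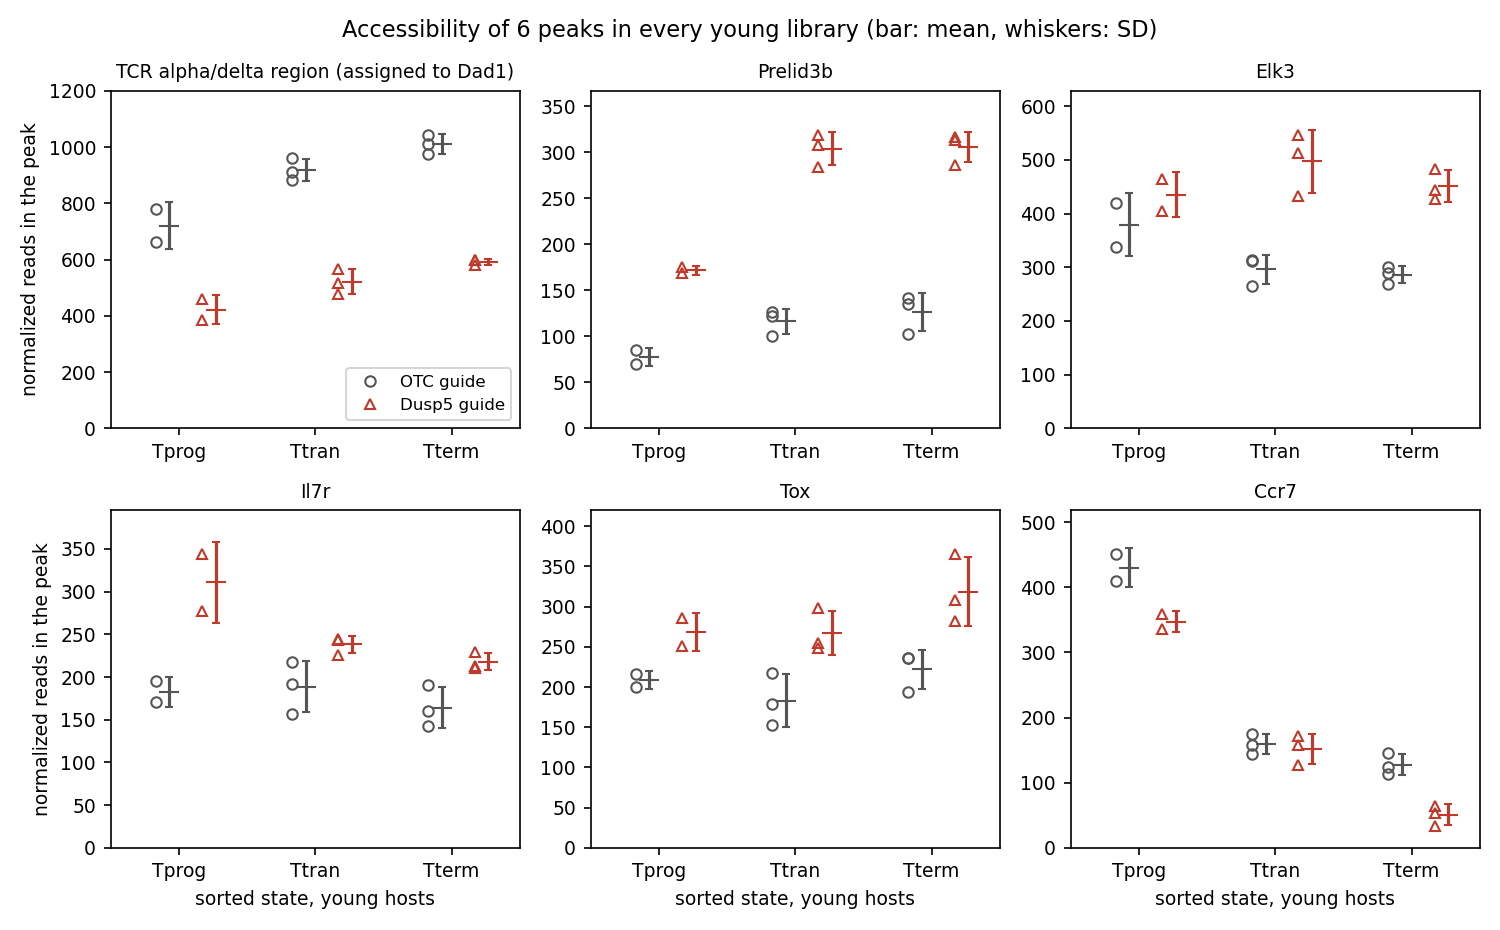
Normalized reads (y axis) of 6 peaks in every young library by sorted state (x axis), OTC as circles and Dusp5 as triangles, with the mean as a bar and the SD as whiskers. In the T cell receptor alpha/delta region all Dusp5 libraries lie below OTC, at Prelid3b, Il7r and Tox all lie above, at Elk3 the groups separate in Ttran and Tterm, and at Ccr7 in Tprog and Tterm.

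Falls were also seen in genes of other functions, at peaks named under rules that asked for no overlap between the guides. In Edem3, which acts in the disposal of misfolded glycoproteins (chr1:151800240-151803235), the values were 789 and 764 against 1259 and 1200.4 in Tprog, 1372, 1142 and 1143 against 1605, 1564 and 1616 in Ttran and 1125, 1089.6 and 1165 against 1443, 1531 and 1472 in Tterm. The change was -0.48 log2 units (SE 0.047, adjusted p = 3.06e-13). Map4k4, a kinase gene (chr1:39986156-39987568), gave -0.72 log2 units (SE 0.088, adjusted p = 4.25e-09), Rapgef2, which encodes an activator of Rap (chr3:79248053-79249302), -1.06 (SE 0.14, adjusted p = 7.91e-08), and Litaf (chr16:10957981-10959564) -0.67 (SE 0.081, adjusted p = 4.25e-09). At the start of Rgs8, which encodes a regulator of G protein signalling (chr1:153652821-153653870), the change was -1.31 log2 units (SE 0.22, adjusted p = 2.43e-05). The start peak of Mgmt, a DNA repair gene (chr7:136894179-136894755), held 41.8 and 40.9 against 66.6 and 73.6 in Tprog, 6.7, 21.1 and 21.5 against 53.4, 45.3 and 39.1 in Ttran and 11.8, 9.43 and 6.93 against 19, 24.4 and 24.7 in Tterm. Its change was -1.18 log2 units (SE 0.24, adjusted p = 0.000717).

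Some genes had several peaks that moved together. Vgll4, which encodes a cofactor of TEAD factors, had 7 of 16 peaks lower and none higher, and 4 to 7 lower over the alternatives. The one with the smallest adjusted p (chr6:114936071-114937126) held 390.5 and 364 against 559 and 456 normalized reads in Tprog, 358, 273 and 328 against 508, 509 and 545 in Ttran and 412, 396 and 428 against 471, 419 and 485 in Tterm, a change of -0.43 log2 units (SE 0.072, adjusted p = 3.06e-05). Galnt2, which encodes an enzyme that starts O-linked glycosylation, had 8 of 19 lower (2 to 9 over the alternatives). Its peak chr8:124317155-124320131 held 1963 and 1884 against 2214 and 2243 in Tprog, 1829, 1991 and 2034 against 2319, 2308 and 2264 in Ttran and 1704, 1664 and 1724 against 2015, 2093 and 1926 in Tterm, a change of -0.23 log2 units (SE 0.033, adjusted p = 6.37e-07). At this peak the guides did not overlap in any state, and at the Vgll4 peak they overlapped in Tterm alone.

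Dlc1, which encodes a GTPase-activating protein, had all 4 of its peaks higher, in the main analysis and in each alternative. At chr8:36612051-36612995 the values were 153 and 150.3 against 103 and 92.4 in Tprog, 268, 164 and 206 against 63.1, 52.4 and 96.1 in Ttran and 141, 152 and 105 against 67, 81.8 and 68.6 in Tterm, a rise of 1.03 log2 units (SE 0.12, adjusted p = 1.69e-09). In Gramd4 5 of 11 peaks rose (2 to 5 over the alternatives), led by chr15:86078152-86080531 at 0.56 log2 units (SE 0.08, adjusted p = 4.64e-07). In Auh, which encodes an enzyme of leucine breakdown, 5 of 19 fell (2 to 6), led by chr13:52879876-52881063 at -0.80 log2 units (SE 0.12, adjusted p = 8.77e-07).

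In 2 stretches the change spanned repeated sequence, where the placement of reads is uncertain. Over 31 peaks in chr5:10000001-12000000, which holds the Speer genes, 23 fell and none rose (74.2% called, against 3.82% of all peaks). Their summed value was 3327 ± 51.5 (SD, n = 2) in Dusp5 Tprog and 4504 ± 87.7 (SD, n = 2) in OTC Tprog. In Ttran it was 4311 ± 227 against 5976 ± 301, and in Tterm 3683 ± 107 against 5343 ± 135 (SD, n = 3 each). Young Zfp219 sums were also below these OTC sums, at 3729 in Tprog, 4660 in Ttran and 4492 in Tterm. So were aged OTC sums, at 3610, 4086 and 3324 in the same order. With Zfp219 12 of the 31 peaks were lower and 0 higher, and with Dusp5 in aged hosts 0 were lower and 1 higher. The part of the young OTC libraries in this difference was not tested. Over 26 peaks at the pseudoautosomal end of the Y chromosome, which recombines with the X, 7 rose and none fell (26.9% called). There the sum was 22761 ± 425 in Dusp5 Tterm against 17883 ± 109 in OTC Tterm (SD, n = 3 each). Both stretches were taken after the results were seen, from windows with a high share of called peaks among 843 windows of 2 Mb. The groups lay apart in each state in both, which that choice favours. In Ttran the Y sums were 22373 ± 817 against 19736 ± 259.6 (SD, n = 3 each), and in Tprog 19501 ± 408 against 18542 ± 113 (SD, n = 2 each). Of the 26 Y peaks, 2 were lower and 0 higher with Zfp219 in young hosts, and 3 were higher and 0 lower with Dusp5 in aged hosts.

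At peaks called in a single state, the other states gave largely the same signs. Of the peaks called in a single state, 27 were called in both Tprog and Ttran, 20 in both Tprog and Tterm and 51 in both Ttran and Tterm, and each of these had the same sign in the pair. Of the 348 called in Ttran, 315 (90.5%) had the same sign in Tterm, and of the 421 called in Tprog, 317 (75.3%) had the same sign in Ttran. Across the 53868 peaks, which are the same regions and not replicates, Pearson's r between the log2 fold changes was 0.106 for Tprog and Ttran, 0.123 for Tprog and Tterm and 0.197 for Ttran and Tterm, with separate libraries in each state. The average over states drew on weak effects: 1455 of its 2057 peaks were called in no single state. The same sign in all 3 states was seen at 1965, but selection by the average of the states favours such peaks. The share over all peaks was not counted.

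Few peaks showed a difference between states. The test of the difference passed at 5 peaks for Tprog against Tterm, 3 for Tprog against Ttran and 1 for Ttran against Tterm, or 0.00928%, 0.00557% and 0.00186% of those tested. The Tprog effect was the higher one at 1 of the 5 (0.00186%) and the lower one at 4 (0.00743%), and at 2 (0.00371%) and 1 of the 3 for Ttran. The last was the Ccr7 peak described above. At Thy1, the gene of a T cell surface protein (chr9:44046603-44047436), the values were 569 and 601 against 403 and 326 normalized reads in Tprog and 217, 215 and 203 against 279, 262 and 248 in Tterm, Dusp5 first. The Dusp5 libraries were the higher ones in Tprog and the lower ones in Tterm, and the difference of effects was 1.0 log2 units (SE 0.19, adjusted p = 0.0135). These counts were unsteady: leaving out a single library gave 0 to 66, 0 to 101 and 0 to 7 peaks.

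A score placed each library between the progenitor and the terminal state. It is the mean log2(value + 1) over 2746 peaks more open in Tprog than in Tterm of aged OTC libraries, minus the mean over 2157 peaks less open. The fold changes that chose the peaks came from aged OTC libraries alone, while the spread in their test was estimated over all 48 libraries. Dusp5 Tprog scored 0.846 ± 0.0191 and OTC Tprog 0.764 ± 0.0121 (SD, n = 2 each). Ttran scored -1.30 ± 0.0419 against -1.32 ± 0.0090 and Tterm -1.96 ± 0.0152 against -1.87 ± 0.0173 (SD, n = 3 each). Dusp5 libraries lay above OTC in Tprog and below it in Tterm, without overlap, and overlapped in Ttran. With 2 or 3 libraries a guide, no exact test within a state can reach 0.05. The difference averaged over states was 0.0041, with an exact two-sided permutation p = 0.858 over 2400 arrangements within states, the smallest possible being 0.000833. Peaks that differ between the states of aged OTC cells made up more of the called peaks than of all peaks. Of the 968 that rose, 11.6% were more open in Tprog and 21.5% in Tterm, and of the 1089 that fell 10.7% and 28.2%, against 8.88% and 11.2% of all peaks. The called peaks were also stronger, with medians of 147 and 428 normalized reads against 94.6 over all peaks. Both calls used the same estimate of the spread at each peak. The part of strength and spread in this excess was not tested.

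**Figure D4:**
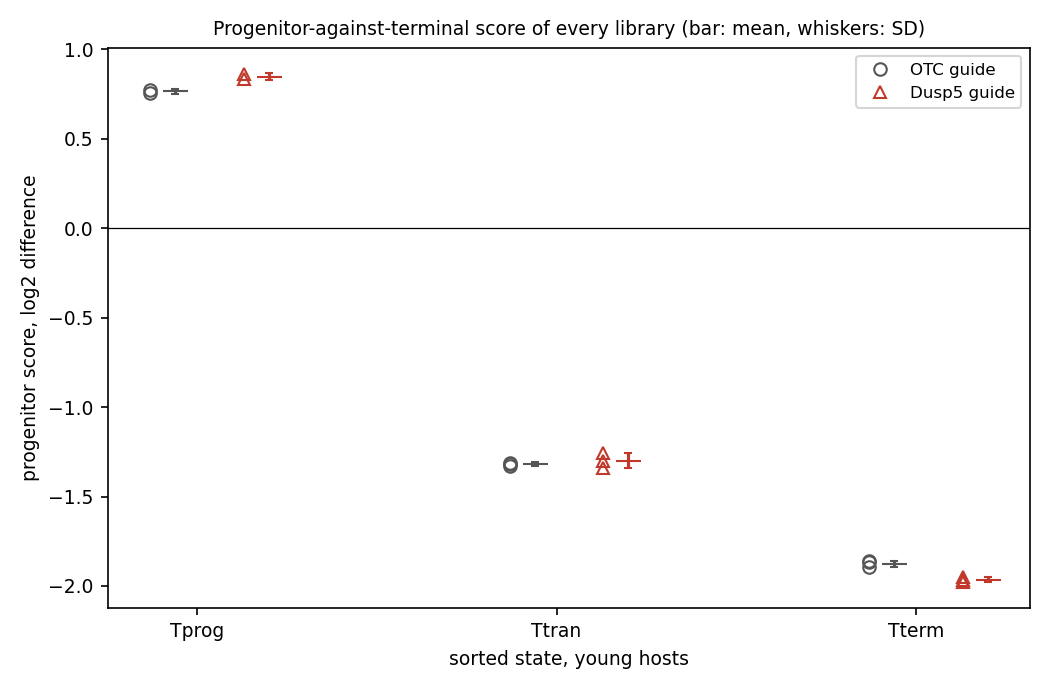
Progenitor-against-terminal score of each young library (y axis, log2 difference) by sorted state (x axis), OTC as circles and Dusp5 as triangles, with the mean as a bar and the SD as whiskers. Dusp5 libraries lie above OTC in Tprog (0.846 against 0.764), overlap in Ttran and lie below in Tterm (-1.96 against -1.87).

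The effect of the guide differed between host ages at many peaks. In aged hosts 2 libraries per guide and state were compared with their own OTC libraries, and the difference between the young and the aged effect passed the test at 2156 peaks, 4% of those tested. In aged hosts alone 4510 peaks were called (8.37%), 1465 higher (2.72%) and 3045 lower (5.65%). The aged libraries were less alike: in aged Tterm the strongest peak took 1.84% to 1.86% of the signal with Dusp5 and 0.635% to 0.653% with OTC. In young Tterm it took 0.375% to 0.390% under both guides. Aged Dusp5 Tterm replicate 2 had 5638413 reads in peaks. The part of these library differences in the result was not tested. The young effect was the higher one at 1472 (2.73%) and the lower one at 684 (1.27%). Elk3 was among them: its leading peak was 0.53 log2 units in young hosts and -0.33 (SE 0.077, adjusted p = 0.00184) in aged hosts, a difference of 0.86 (SE 0.10, adjusted p = 3.32e-09). The Il7r peak was at -0.18 log2 units (SE 0.10) in aged hosts, with a difference of 0.69 (SE 0.14, adjusted p = 0.000514). For the receptor locus peak the aged effect was -0.31 log2 units and the difference -0.48 (SE 0.077, adjusted p = 6.79e-06). The Tox peak with the smallest p gave 0.093 log2 units in aged hosts, and the difference of 0.38 did not pass (adjusted p = 0.106). At the Thy1 peak the aged effect was -1.98 log2 units, against 0.24 in young hosts, a difference of 2.22 (SE 0.11, adjusted p = 4.57e-31).

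The guide against Zfp219, a zinc finger gene, was measured in young hosts against the same OTC libraries, so the effects of the 2 guides share their control and are given side by side. Dusp5 and Zfp219 libraries were then compared directly, and 4396 peaks differed, 8.16% of those tested, of which 2911 (5.4%) were higher and 1485 (2.76%) lower with Dusp5. Against OTC, Zfp219 gave 3811 called peaks (7.07%), 1036 higher (1.92%) and 2775 lower (5.15%). Several of the changes were similar under both guides. The Rgs8 start peak was at -1.31 log2 units with Dusp5 and -1.37 with Zfp219, with a direct difference of 0.054 (SE 0.22, adjusted p = 0.925). The Ly86 peak was at -3.46 log2 units and -3.03. At the leading Tox peak the values were 0.48 log2 units and 0.36, a difference of 0.11 (SE 0.092, adjusted p = 0.525), and of the 8 Tox peaks the direct test passed at chr4:6934488-6935792 alone, with 0.35 (SE 0.10, adjusted p = 0.0185). Vgll4 was lower still with Zfp219, at -0.83 log2 units against -0.43.

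Other changes separated the guides. The Il12a peak was at 0.87 log2 units with Dusp5 and -0.49 with Zfp219, a difference of 1.37 (SE 0.10, adjusted p = 1.78e-19). Near Kctd15 (chr7:34629391-34630942) the effects were 1.19 log2 units and -0.55, a difference of 1.74 (SE 0.18, adjusted p = 1.6e-12). The Bcl2l11 peak was at 0.81 log2 units and -0.39, a difference of 1.20 (SE 0.14, adjusted p = 4.66e-10). The leading Elk3 peak was at 0.53 log2 units and 0.11, a difference of 0.43 (SE 0.068, adjusted p = 2.3e-06). All 4 Xcl1 peaks that rose with Dusp5 were higher than with Zfp219 in the direct test, with adjusted p of 2.48e-06 to 0.00255. The receptor locus peak fell by 0.79 on the log2 scale with Dusp5 and stood at -0.37 with Zfp219, a difference of -0.42 (SE 0.051, adjusted p = 1.18e-09).

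**Figure D5:**
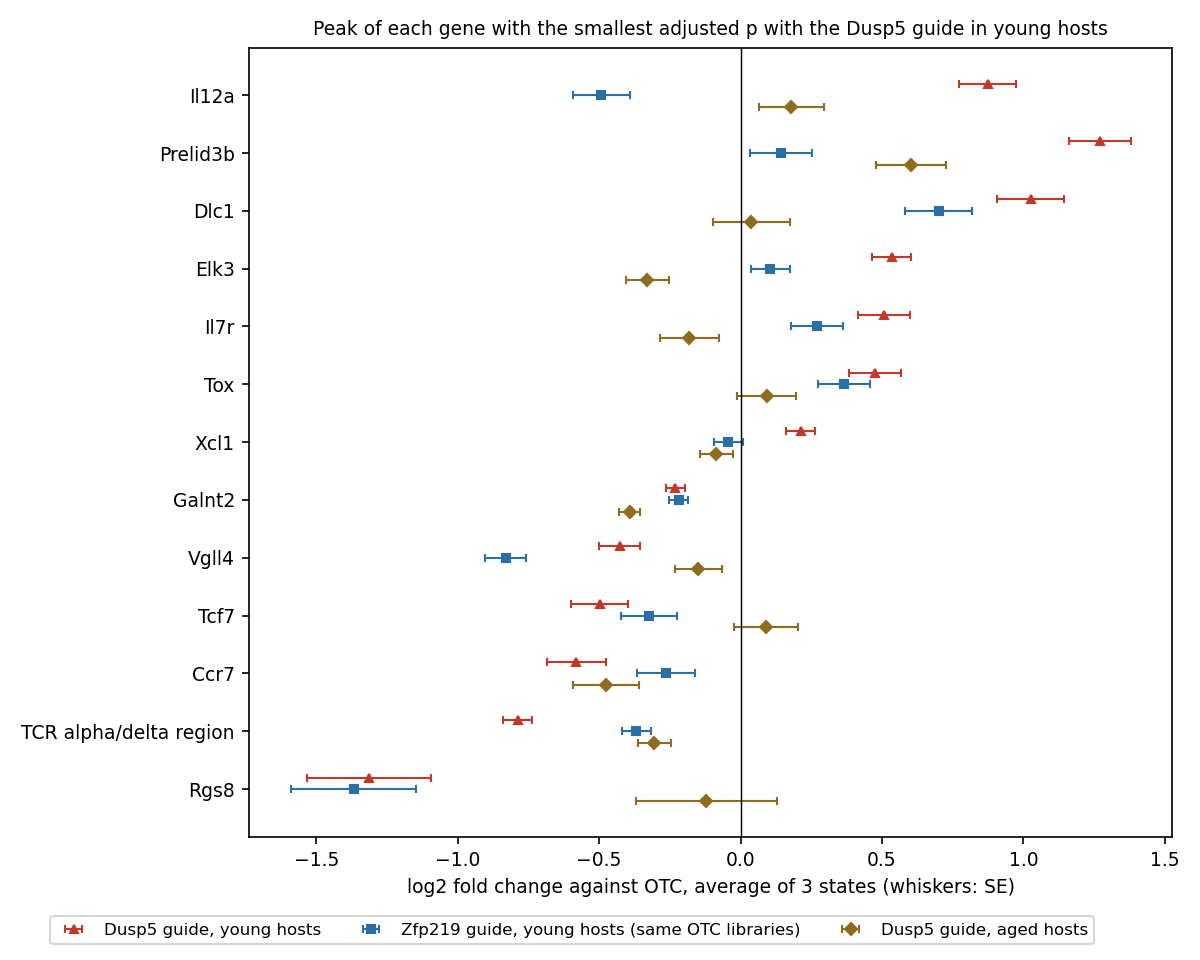
Log2 fold change against OTC (x axis), averaged over 3 states, of 1 peak in each of 13 regions (y axis) for the Dusp5 guide in young hosts (triangles), the Zfp219 guide in young hosts with the same OTC libraries (squares) and the Dusp5 guide in aged hosts (diamonds), with whiskers for the SE. Il12a lies above 0 with Dusp5 and below it with Zfp219, Elk3 lies above 0 in young and below it in aged hosts, and Rgs8 lies near -1.3 under both guides in young hosts.

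Promoters under the start peaks that moved were searched for 7 motifs on both strands of the 250 bases before the start. The motifs were AP-1 (TGANTCA), CRE (TGACGTCA), ETS (CCGGAAG), EGR (GCGTGGG), RUNX (TGTGGTT), TCF (CTTTGAT) and the CArG box. Starts in peaks that rose gave 65 windows, those in peaks that fell 282, and those in any peak 10406. An ETS match was in 7.69%, 13.1% and 15.9% of them, and in 8.98% of all 21263 promoters of the table. An EGR match was in 13.8%, 6.03% and 8.03%, and in 5.46% of all promoters. AP-1 matches were in 3.08%, 3.19% and 3.84%, and CArG boxes in 1.54%, 1.06% and 0.980%. No motif contains another. The counts are small and were not tested, and a match is a description of the letters alone.

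The promoters of Vgll4, Mgmt and Fosl2, whose start peaks fell, are shown, each as the 250 bases before the start on the strand of the gene, from RefSeq (GRCm38.p6). Capitals mark motif matches. Vgll4 has 2 EGR matches, with their first bases 243 and 205 bases before the start, and the windows of Mgmt and Fosl2 hold none of the 7 motifs.
Vgll4 promoter, chr6:114969204-114969453, minus strand: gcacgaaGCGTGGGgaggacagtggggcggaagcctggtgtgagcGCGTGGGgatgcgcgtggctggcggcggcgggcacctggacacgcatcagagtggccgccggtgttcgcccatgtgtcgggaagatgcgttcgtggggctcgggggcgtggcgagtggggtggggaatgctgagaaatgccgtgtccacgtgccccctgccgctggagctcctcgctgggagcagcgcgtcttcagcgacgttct
Mgmt promoter, chr7:136894336-136894585, plus strand: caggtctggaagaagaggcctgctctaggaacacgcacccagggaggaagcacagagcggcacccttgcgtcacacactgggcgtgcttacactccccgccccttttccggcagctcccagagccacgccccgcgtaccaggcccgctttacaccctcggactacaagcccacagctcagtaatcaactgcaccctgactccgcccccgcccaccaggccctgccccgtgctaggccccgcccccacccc
Fosl2 promoter, chr5:32136222-32136471, plus strand: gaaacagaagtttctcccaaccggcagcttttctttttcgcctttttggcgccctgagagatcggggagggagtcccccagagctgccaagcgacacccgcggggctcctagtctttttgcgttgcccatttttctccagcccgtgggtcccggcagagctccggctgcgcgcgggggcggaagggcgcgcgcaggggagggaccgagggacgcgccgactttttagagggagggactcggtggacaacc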

How the data were processed

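ATAC-seq reads were aligned to mm10 and peaks were called, and the submitters' processing notes list Bowtie2 2.2.9, SAMtools 1.3.1, Picard 2.8.0, MACS2 2.1.1 and DESeq2 1.28.1 without parameters. The authors deposited 1 table of 53868 peaks and 48 libraries of normalized read signal, in which each library's values are whole multiples of a single step (100% of values, within 0.001 of a step). Dividing by that step recovered whole reads, and the recovered totals are the depth. Replicates of a group differed by more than sampling noise.

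Since the deposited signal is not raw counts, the test was limma 3.58.1 (R 4.3.3; lmFit and eBayes with a trend) on log2(value + 1), with a mean for each of 21 groups over all 48 libraries and Benjamini-Hochberg adjustment over all peaks. Calls were made at an adjusted p under 0.05. No covariate was used. The score was tested by an exact permutation of guides within states. The scripts were tested on simulated data. Called peaks over all genes are the background beside each list, and no list was given a test of its own.

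Peaks were given to a protein-coding gene where they overlap its body, otherwise to the nearest one within 100 kb (51109 peaks; RefSeq, GRCm38.p6, 21900 genes). Starts were known for 17492 of these genes. That assembly's coordinates fit the table: 50.05% of gene boundaries lay in a peak, against 7.936% and 8.064% after shifts of 5000 and 100000 bp.

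Named are the Dusp5 peaks, the 10 largest changes in each direction among called peaks with a gene, a mean of at least 20 normalized reads and no overlap in any state, with 1 peak per gene. Under the same conditions the 5 smallest p in each direction were named, and 4 per state and direction without overlap in that state. Further named are 2 per direction for each difference, genes with at least 5 called peaks, and the called or strongest peaks of listed genes. The text describes a selection of these, and some named peaks are not reported here. The members and lists were chosen with earlier results of these data known.

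The alternatives were edgeR 4.0.16 and DESeq2 1.42.0 on whole reads, TMM and quantile scaling, a pseudocount of 8, the weakest 25% of peaks left out, library weights, thinning to the smallest total, the 24 young or the 16 compared libraries alone, a replicate block, 1 value per group and state, and each library left out in turn.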

Additional observations from a re-analysis of the deposited data

Results flagged for a closer look

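The Dusp5 effect differed between states at few peaks and between host ages at many, by limma tests of the difference between the effects. These tests passed at 5 peaks for Tprog against Tterm, 3 for Tprog against Ttran, 1 for Ttran against Tterm and 2156 for young against aged hosts. With 2 or 3 libraries per group, single libraries were not tested for standing apart from their group.

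Between states, the largest differences of effect lay near or in genes of varied function. At Thy1 (chr9:44046603-44047436) the effect in Tprog exceeded that in Tterm by 1.0 log2 units. At Pecam1, an adhesion molecule gene (chr11:106702295-106703065), and at a Litaf peak (chr16:11001712-11002375) the same difference was -2.27 and -1.73 log2 units. Against Ttran, the Tprog effect was higher by 2.17 log2 units at Marchf7, a ubiquitin ligase gene (chr2:60239470-60240737), and by 2.05 at Vps50, a gene of endosome recycling (chr6:3537876-3538614). At Aqr, the gene of a splicing helicase (chr2:114134661-114135541), it differed by -2.95 log2 units. The Ccr7 peak (chr11:99166277-99166875) gave 1.29 log2 units for Ttran against Tterm. Of the alternatives, 19 ended the call at Litaf, 17 that at Aqr, 15 at Marchf7, 12 at Vps50, 10 at Pecam1, 9 at Ccr7 and 5 at Thy1.

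Between host ages, the young effect minus the aged effect was -2.80 log2 units at Ly86 (chr13:37345413-37346166) and -2.55 at Elovl6, a fatty acid elongase gene (chr3:129590710-129591073). It was 2.89 log2 units at Kif1a, the gene of a neuronal kinesin (chr1:93038552-93039618), and 2.38 near Edn1, which encodes endothelin (chr13:42374147-42374849). Of these calls, that at Ly86 was lost in 1 alternative and the others in none.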

How the results depend on the processing

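The median log2 fold change of all peaks ran from -0.0161 to 0.00957 over all comparisons and settings. Where a cause is not given by the construction of the alternative, the cause was not tested. In the average (2057 peaks), DESeq2 called 3488, thinned libraries 1295 and 1 value per group and state 612, all of them among the 2057. The share of called peaks that were higher was 47.1%, and 54.7% after quantile scaling. Leaving out 1 library gave 1312 (without OTC Tprog replicate 2) to 1875. In Tprog (421) the 16 libraries alone gave 868, DESeq2 946, thinning 196 and library weights 157, and leaving out 1 library gave 97 (without OTC Tprog replicate 2) to 559 (without Dusp5 Tprog replicate 1), with 159 without Dusp5 Tprog replicate 2 and 204 without OTC Tprog replicate 1. In Ttran (348) DESeq2 gave 723, thinning 151, and leaving out 1 library 129 (without OTC Ttran replicate 3) to 369. In Tterm (147) the values were 584 with DESeq2, 318 with edgeR, 1428 with weights, and 60 (without Dusp5 Tterm replicate 1) to 168.

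Counts for differences between effects moved most. Tprog against Tterm (5) gave 22 with the 16 libraries, 14 with the 24 young libraries, 34 with DESeq2, 27 with weights, 10 without the weakest 25% of peaks and 0 to 66 without 1 library. Tprog against Ttran (3) gave 43, 7, 103, 0 and 15 in the same order, 6 with edgeR, 0 with a pseudocount of 8, 19 after quantile scaling, 8 with the replicate block and 0 to 101 without 1 library. Ttran against Tterm (1) gave 0 with the 24 young libraries, 19 with DESeq2, 2 with edgeR, 0 thinned, 14 with weights, 3 after quantile scaling, 5 without the weakest peaks and 0 to 7 without 1 library. Young against aged (2156) gave 1312 thinned and 1796 to 2093 without 1 library, and Dusp5 against Zfp219 (4396) gave 2711 and 3243 to 4410.

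The score difference (0.0041) changed sign with peaks chosen in Zfp219 libraries (-0.00719, exact permutation p = 0.813), after quantile scaling (-0.00773), without Dusp5 Tprog replicate 1 (-0.000423) and without Dusp5 Ttran replicate 3 (-0.00309), and ran from -0.00309 to 0.0109 without 1 library. Taken within replicate pairs (the replicate block) it was 0.0041 with an exact sign-flip p = 0.859. The replicate block gave 411, 352, 135 and 2017 called peaks in Tprog, Ttran, Tterm and the average. Within a state, the numbers gave no sign of pairing Dusp5 with OTC libraries. Same-numbered deviations correlated at -0.00741 to -0.000668, and none was closest to its own number. In Tprog, with 2 libraries per guide, the deviations mirror each other and can show little. Pairing between states of the same guide was not examined, and the average over states treats all libraries as independent.

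Of 212 tested values of named peaks, 89 kept their side of the threshold in every alternative, 121 lost a call in at least 1, 2 gained one in at least 1, and 0 changed sign. Thinning to the smallest total lowered the counts in Tprog, Ttran, Tterm (147 to 129) and the average, and those between host ages and between guides. Whether this fell on weak peaks was not tested.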
